A study of Mus musculus with 161 samples.

Results

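Macrophages that had been held in the M1 state for 24 h were washed and returned to medium without polarizing cytokines, and their transcriptomes were measured 2 h later, at 26 h in all. These 2 h M1 → M0 cells were profiled in 3 bulk RNA-seq libraries and are compared here with 3 libraries of 24 h M1 cells taken at the time of the switch. The 6 libraries were chosen by their labels alone, out of 161 samples in the series, and 139 further bulk RNA-seq libraries entered the model. The cells were bone marrow-derived macrophages (BMDMs), which are grown from marrow progenitors with macrophage colony stimulating factor (M-CSF), from C57BL/6J mice of 6 to 10 weeks. On day 7 of culture both groups received 100 ng/mL lipopolysaccharide (LPS), a component of bacterial cell walls, with 25 ng/mL interferon-γ (IFN-γ) for 24 h. The 2 h M1 → M0 cells were then rinsed with PBS and placed in base medium, which was RPMI-1640 with 20% horse serum, antibiotics and 20 ng/mL M-CSF. As another washout for comparison, 3 libraries of 2 h M2 → M0 cells were set against 3 libraries of 24 h M2 cells. The M2 cells had received 25 ng/mL interleukin-4 (IL-4) for 24 h before the same switch. Loss of IL-4 goes together with the rinse, fresh medium and 2 further hours there. This comparison is therefore not a reference for the washing alone. No M1 library kept in LPS and IFN-γ to 26 h was analysed here, so that loss of the stimuli, the rinse, fresh medium and 2 further hours in culture cannot be told apart. The labels and the study's methods call the 3 libraries of a group biological replicates. Neither says whether each came from its own mouse or culture. P-values and standard errors (SE) rest on the spread between libraries of the same condition, pooled over all bulk RNA-seq libraries in the model. This is not the spread of the 6 compared libraries alone. A fit of those 6 called 63 genes, against 257 with the pooled spread (limma, adjusted p below 0.05). Values are FPKM, a read number scaled to gene length and library size, and cover 8307 genes.

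LPS acts through Toll-like receptor 4 to activate NF-κB and interferon regulatory factors, while IFN-γ acts through its receptor and the kinases JAK1 and JAK2. Both pathways induce their own inhibitors, among them the SOCS proteins, which block the receptor kinases, and IκBα, which holds NF-κB in the cytoplasm. How fast a transcript falls once a stimulus is taken away is limited by its stability, and transcripts of feedback inhibitors and chemokines are known for short half-lives, whereas many transcripts of interferon-stimulated genes are long-lived.

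At 2 h after washout a small set of genes had moved, and M1 marker genes such as Nos2 had not passed the test. Of the 8307 genes, 197 rose (2.37%) and 60 fell (0.722%), which together are 3.09% of the genes tested (limma, Benjamini-Hochberg adjusted p below 0.05). These shares are the background for all counts of list members given below. Among genes that averaged at least 20 FPKM in either group, those that fell furthest encode feedback inhibitors of cytokine signalling, Socs1 and Socs3, and the chemokine Cxcl10, and those that rose furthest encode inhibitors of helix-loop-helix transcription factors, Id3 and Id2, and the repressor Bhlhe40. Most changes were small, as 198 of the 257 genes (77.0%) changed by less than 2-fold, 44 rose and 15 fell by at least 2-fold. The median log2 fold change of all genes was 0.001, with quartiles at -0.12 and 0.13. No library of one group overlapped the other group for 194 of the genes that rose and 58 of those that fell. Every gene that passed moved the same way in 3 of 3 pairs of equally numbered libraries. The test picked these genes from the same libraries, so both counts follow largely from that choice and are no separate support. The shares over all genes are not given here. At an unadjusted p under 0.05 there were 999 genes.

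The number of genes that passed depended on single libraries. None of the 257 genes changed sign without one, but for genes whose groups did not overlap this was fixed in advance. With a block for the replicate number, 327 genes rose and 121 fell, and these 448 genes held all 257. Without replicate 1 of the 2 h M1 → M0 libraries 135 genes passed, without replicate 2 there were 140, and without replicate 2 or replicate 3 of the 24 h M1 libraries 168 and 120 passed. With the median of every library set to a common value 148 genes rose and 76 fell. The libraries numbered 1 stood apart in both groups: over all genes the correlation of log2 values was 0.983 between replicate 1 of 2 h M1 → M0 and replicate 1 of 24 h M1, against 0.974 and 0.978 between replicate 1 and replicates 2 and 3 of 2 h M1 → M0. The FPKM of all genes summed to between 506261 and 548606 in 2 h M1 → M0 libraries and to between 520093 and 560718 in 24 h M1 libraries. The 95% interval of a log2 fold change reached a median of 0.33 to either side, and smaller changes in a typical gene were not detectable with 3 libraries a group. In bulk RNA, fewer cells of a kind and less of a transcript per cell cannot be told apart.

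Macrophage markers were abundant in both groups and mostly somewhat lower after washout. All 8 of the list were measured and none passed the test (limma; 1 lower at an unadjusted p under 0.05), while 6 had a negative log2 fold change, at a median of -0.24. Their summed level was between 5234 and 5658 FPKM in 2 h M1 → M0 and between 5963 and 7488 FPKM in 24 h M1, without overlap. Lyz2, a lysozyme gene of myeloid cells and the most abundant of them, had 2795, 2342 and 2297 FPKM after washout against 2999, 3103 and 4132 FPKM (-0.45, 95% interval -0.76 to -0.15), with a limma adjusted p of 0.093 without and 0.038 with the replicate block. Csf1r, which encodes the receptor for M-CSF, stood at 242, 205 and 212 FPKM after washout and at 224, 205 and 222 FPKM before. The matrix held 0 markers of lymphoid T or NK cells, red cell precursors and mast cells, and the 1 dendritic cell, 1 B cell, 1 endothelial, 5 osteoclast and 11 neutrophil markers it held did not pass (limma; 0 at an unadjusted p under 0.05 and 0 with the replicate block). The 4 fibroblast markers summed to between 1.88 and 37.3 FPKM after washout and to between 1.75 and 46.3 FPKM before, with replicate 1 the lowest in both groups. Of 3 megakaryocyte markers 1 fell, Ppbp, which encodes a platelet chemokine. Ppbp had 2.35, 5.204 and 5.38 FPKM in 2 h M1 → M0 and 14.6, 21.5 and 16.96 FPKM in 24 h M1 (log2 fold change -1.86 ± 0.41 SE, limma adjusted p = 0.002; 0.053 without replicate 1 of 2 h M1 → M0). Pf4 averaged 151 ± 34.6 FPKM after washout and 169 ± 31.7 FPKM before (SD, n = 3 each) and did not pass. Itga2b averaged 1.89 ± 0.44 FPKM and 5.32 ± 1.58 FPKM (SD, n = 3 each), with a limma adjusted p of 0.25 without and 0.029 with the replicate block. The part of other cell types in the results was not tested.

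**Figure D1:**
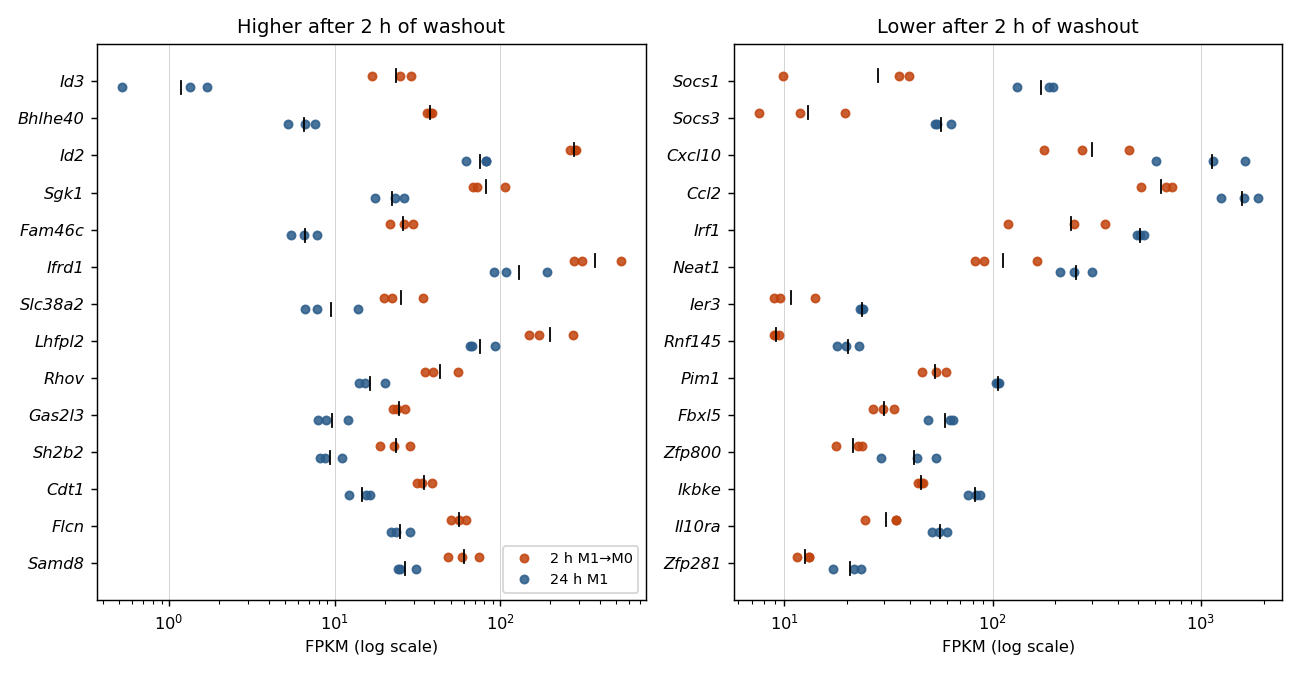
FPKM of the 14 genes with the largest rise (left panel) and the 14 with the largest fall (right panel) among genes past the test that averaged at least 20 FPKM in either group and whose groups did not overlap, predicted genes left out, on a log axis, in each of the 3 libraries of 2 h M1 → M0 (orange, upper row of each gene) and of 24 h M1 (blue, lower row), with the mean as a black bar. In each of these 28 genes the 3 libraries of one group lie apart from the 3 of the other, as the rule for naming them required, and Id3 has the widest gap.

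Feedback inhibitors of cytokine signalling had the largest falls at these levels. Socs1 (chromosome 16), which encodes an inhibitor of JAK kinases that limits the response to IFN-γ, had 9.81, 39.5 and 35.4 FPKM in 2 h M1 → M0 cells, against 130.5, 194 and 187 FPKM in 24 h M1 cells. All washed libraries were below all M1 libraries, and replicate 1 was lowest in both groups. The log2 fold change was -2.75 ± 0.38 SE (limma adjusted p = 1.4e-07; 0.073 in a fit of the 6 libraries alone). Socs3 (chromosome 11), which encodes a related inhibitor that acts on the receptors for IL-6 and other cytokines that use gp130, had 7.56, 19.6 and 11.9 FPKM after washout and 63.1, 54.0 and 53.1 FPKM in 24 h M1 (-2.13 ± 0.30 SE, limma adjusted p = 2e-07). Pim1, a kinase gene induced by STAT factors, had 53.5, 59.4 and 45.7 FPKM against 106, 108 and 103 FPKM (-0.99 ± 0.26 SE, limma adjusted p = 0.012; 0.074 without replicate 3 of 2 h M1 → M0). It fell to about the same extent in each numbered pair.

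Of 32 genes of JAK-STAT signalling and interferon receptors measured, 3 fell and none rose, at a list median of -0.13. Besides Socs1 and Socs3 this was Il10ra, which encodes the ligand-binding chain of the receptor for interleukin-10, at 24.3, 34.2 and 34.2 FPKM after washout and at 51.4, 55.3 and 60.3 FPKM in 24 h M1 (-0.84 ± 0.26 SE). Il10ra lies at the threshold and lost its call without any one of the 6 libraries (limma adjusted p 0.067 to 0.29) and in a fit of the 6 alone (0.073). The other receptor genes and the kinases did not pass. Jak1 had 128, 115 and 106 FPKM after washout against 105, 79.8 and 84.4 FPKM in 24 h M1, a log2 difference of 0.37 (95% interval 0.13 to 0.62), and limma gave an adjusted p of 0.076 without and 0.026 with the replicate block.

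Irf1 (chromosome 11), which encodes a transcription factor that IFN-γ induces, was the 1 gene of 13 interferon regulatory factors and partners that fell. It had 119, 347 and 246 FPKM in 2 h M1 → M0 libraries and 493, 530.5 and 507 FPKM in 24 h M1 libraries. The washed libraries differed among themselves by more than the M1 libraries did. The log2 fold change was -1.23 ± 0.32 SE (limma adjusted p = 0.013), and the call was lost without replicate 1 of 2 h M1 → M0 (0.31), without replicate 2 (0.055) or replicate 3 (0.056) of 24 h M1 and in a fit of the 6 libraries alone (0.22). Gm17334, an annotated gene whose exons overlap those of Irf1 on the opposite strand, fell as well, with 0.94, 2.94 and 1.69 FPKM after washout and 7.54, 8.43 and 6.08 FPKM before. The library kit does not mark strand, so reads of Irf1 and Gm17334 cannot be told apart where they overlap. Of the other members Batf2 stood at 66.2 and 110 FPKM on average (-0.73, 95% interval -1.60 to 0.15) and Irf7 at 1549 and 1601 FPKM (-0.05, -0.49 to 0.39), the 2 h M1 → M0 value first.

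Promoters were taken from RefSeq (GRCm38.p6), which holds 1 for 37 of the 60 genes that fell. They are given to show the sequence before the start sites of some genes of these pathways that fell. The genes printed and the sites marked were picked by hand, and only promoters with a match were printed. Other genes of these pathways that fell, such as Il10ra and Pim1, are not shown. A site for activated STAT dimers (GAS) was searched as TTCNNNGAA, which reads the same on both strands, a site for interferon regulatory factors (IRF) as GAAANNGAA and a κB site as GGANTTTCC, both of these on either strand. The 250 bases before the start of each gene are printed 5′ to 3′ on the strand of the gene, with the matches in capitals. For Socs3 the promoter start used lies inside the RefSeq gene span (chr11:117966079-117970336), which begins further upstream. Positions in Socs3 therefore count from the promoter start used alone.
Socs1, minus strand, chr16:10785537-10785786: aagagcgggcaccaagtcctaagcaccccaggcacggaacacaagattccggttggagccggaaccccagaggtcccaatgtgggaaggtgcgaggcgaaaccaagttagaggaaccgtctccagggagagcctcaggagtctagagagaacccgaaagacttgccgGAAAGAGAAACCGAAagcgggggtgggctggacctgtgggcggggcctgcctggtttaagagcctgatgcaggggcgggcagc
Socs3, minus strand, chr11:117969367-117969616: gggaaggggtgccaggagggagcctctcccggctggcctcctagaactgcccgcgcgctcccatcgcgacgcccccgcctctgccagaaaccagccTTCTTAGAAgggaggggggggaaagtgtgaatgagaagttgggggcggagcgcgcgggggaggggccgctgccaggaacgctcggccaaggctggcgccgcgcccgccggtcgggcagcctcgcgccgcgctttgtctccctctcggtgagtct
Irf1, plus strand, chr11:53769764-53770013: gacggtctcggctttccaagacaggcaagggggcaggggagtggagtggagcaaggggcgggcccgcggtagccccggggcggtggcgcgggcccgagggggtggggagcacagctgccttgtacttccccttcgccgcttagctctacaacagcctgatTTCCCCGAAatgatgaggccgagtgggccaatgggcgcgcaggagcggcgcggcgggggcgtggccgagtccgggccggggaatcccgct
Cxcl10, minus strand, chr5:92348890-92349139: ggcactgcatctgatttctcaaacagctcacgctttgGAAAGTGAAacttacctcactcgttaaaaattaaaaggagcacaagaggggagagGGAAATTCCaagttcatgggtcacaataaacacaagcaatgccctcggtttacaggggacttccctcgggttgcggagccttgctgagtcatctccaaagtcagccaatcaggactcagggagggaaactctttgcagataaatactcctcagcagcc
In Socs1 the capitals mark 2 IRF matches that share 3 bases and begin at -83 and -77 from the start. In Socs3 and Irf1 they mark a GAS match, beginning at -154 and -90 from the promoter start used, and in Cxcl10 an IRF match at -213 and a κB match, on the opposite strand, at -158. Within 300 bases that run from 250 before to 50 after the start, a GAS match stood in at least 1 promoter of 4 of 37 genes that fell with a promoter in the table (10.8%), in 7 of 155 that rose (4.52%) and in 8.09% of 6144 measured genes. An IRF match was found in 6 of the 37 (16.2%), in 9 of the 155 (5.81%) and in 9.59% of all, and a κB match in 4 of the 37 (10.8%), in 2 of the 155 (1.29%) and in 1.99% of all. These are matches of letters, with no test, and not evidence of binding.

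Among 24 chemokine and chemokine receptor genes measured, Cxcl10 and Ccl2 fell and none rose, at a list median of -0.26. Cxcl10, which encodes a chemokine for activated T cells and is induced by both IFN-γ and LPS, had 268, 176.5 and 453 FPKM after washout and 1619, 606 and 1145 FPKM in 24 h M1 (log2 fold change -1.90 ± 0.52 SE, limma adjusted p = 0.02). Ccl2, the main chemokine for monocytes, had 681, 516 and 726 FPKM against 1868, 1244 and 1614 FPKM (-1.29 ± 0.35 SE, limma adjusted p = 0.021). Both calls were lost without replicate 1 or 2 of 2 h M1 → M0 and without replicate 1 or 3 of 24 h M1, with limma adjusted p of 0.078 to 0.19 for Cxcl10 and of 0.056 to 0.15 for Ccl2, and in a fit of the 6 libraries alone (0.15 and 0.052). Exons of Art3 overlap those of Cxcl10 on the opposite strand. Other chemokine genes spread to both sides without passing: Ccl7, another monocyte chemokine, had a mean of 142 FPKM after washout and 397 FPKM before (-1.45, 95% interval -2.47 to -0.42, limma adjusted p = 0.12, and 0.027 with the replicate block), whereas the receptor gene Cxcr4 had 23.1 and 9.48 FPKM (1.21, 0.40 to 2.02, limma adjusted p = 0.089, and 0.041 with the replicate block). Cxcl9, a chemokine that depends on IFN-γ, had 575, 758 and 757 FPKM against 663, 767 and 750 FPKM, and Ccl5 had 9817, 5542 and 6412 FPKM against 10160, 7046 and 8663 FPKM. The libraries of the 2 groups overlapped for both.

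In the NF-κB group 2 of 29 members rose and 2 fell, at a median of -0.05. Ikbke, which encodes the kinase IKKε, had 43.6, 45.2 and 46.5 FPKM after washout against 76.3, 82.8 and 87.1 FPKM (-0.85 ± 0.23 SE, limma adjusted p = 0.023), and N4bp1 had means of 30.6 and 46.4 FPKM (-0.58 ± 0.17 SE, limma adjusted p = 0.033). Traf3, an adaptor that restrains the non-canonical branch of NF-κB, rose by 0.59 ± 0.17 SE (19.8 against 12.8 FPKM, limma adjusted p = 0.033), and Zc3h12a, which encodes the ribonuclease Regnase-1 that degrades cytokine mRNAs, rose by 0.86 ± 0.25 SE (45.1 against 24.4 FPKM, limma adjusted p = 0.034). These 4 calls rested on single libraries. Without any 1 of 5 libraries the limma adjusted p of Ikbke was 0.053 to 0.12 (all but replicate 1 of 24 h M1) and that of Zc3h12a 0.059 to 0.22 (again all but that library). Without replicate 2 or 3 of 2 h M1 → M0 or replicate 1 or 3 of 24 h M1 that of N4bp1 was 0.098 to 0.25, and without replicate 1 or 2 of 2 h M1 → M0 or replicate 2 or 3 of 24 h M1 that of Traf3 was 0.078 to 0.21. With a common median Traf3 and Zc3h12a were at 0.068 and 0.066, and in a fit of the 6 libraries alone N4bp1, Traf3 and Zc3h12a were at 0.18, 0.13 and 0.081. Nfkbia, which encodes IκBα, had 79.5, 77.7 and 81.2 FPKM after washout against 147, 166 and 165 FPKM in 24 h M1 (-0.99, 95% interval -1.64 to -0.34). The libraries did not overlap, and limma gave an adjusted p of 0.079 without the replicate block and 0.025 with it. Nfkb1 itself had 35.4, 31.1 and 31.2 FPKM against 39.6, 30.9 and 34.6 FPKM.

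Fast-response genes were split. Ier3, an early gene that NF-κB induces, fell to 13.97, 9.52 and 8.94 FPKM after washout, against 23.5, 23.04 and 23.8 FPKM in 24 h M1 (-1.07 ± 0.32 SE, limma adjusted p = 0.042). It was the 1 member of 26 immediate-early genes past the test, and the call was lost without each library but replicate 1 of 2 h M1 → M0 (0.10 to 0.18) and in a fit of the 6 libraries alone (0.051). Of 13 genes of MAP kinase feedback 1 rose and 1 fell, at a median of 0.38. Dusp6, a phosphatase gene that follows ERK activity, had 6.82, 3.91 and 3.61 FPKM against 22.5, 10.3 and 19.6 FPKM (-1.65 ± 0.28 SE, limma adjusted p = 2.8e-05; 0.09 in a fit of the 6 libraries alone). Gadd45b, a stress gene that activates p38 and JNK kinases, had 104, 109 and 138.5 FPKM against 56.9, 64.4 and 44.9 FPKM (1.07 ± 0.30 SE, limma adjusted p = 0.024). Only replicate 2 of 24 h M1 could be left out singly without losing the Gadd45b call (0.051 to 0.19 without each of the others), which a fit of the 6 libraries alone did not give either (0.054).

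Marker genes of the M1 state had not passed the test by 2 h. Nos2, which encodes the inducible nitric oxide synthase, had 677, 508 and 502 FPKM after washout and 741, 518.5 and 613 FPKM in 24 h M1, a log2 difference of -0.15 with a 95% interval from -0.87 to 0.57. Tnf had 59.8, 45.9 and 70.3 FPKM against 63.1, 64.9 and 79.3 FPKM (-0.25, -1.23 to 0.74), and Myd88, the adaptor of Toll-like receptors, had 44.2, 47.2 and 54.5 FPKM against 60.6, 56.9 and 58.2 FPKM (-0.27, -0.58 to 0.05). The intervals of Nos2 and Tnf are wide and take in falls as well as rises. Of 29 genes of M1 effector enzymes none passed (limma; 4 were lower at an unadjusted p under 0.05 and none passed with the replicate block), at a median of -0.19. Of 22 inflammatory cytokine genes none passed either (1 higher and 3 lower at an unadjusted p under 0.05; 1 higher and 1 lower with the replicate block), at a median of -0.17. Il1b had 7.27, 2.67 and 3.12 FPKM after washout and 18.1, 4.63 and 6.37 FPKM in 24 h M1, with overlap between the groups.

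Interferon-stimulated genes stood slightly below their level in 24 h M1 as a list, without a member past the test. Of 49 antiviral genes 44 had a negative log2 fold change, the median was -0.19 and the range -0.61 to 0.33, and 2 were lower at an unadjusted p under 0.05 (limma; none passed with the replicate block). Their summed level was between 14440 and 18020 FPKM after washout and between 16510 and 21830 FPKM in 24 h M1, with overlap. Isg15, which encodes a ubiquitin-like protein, had 837, 831 and 1262 FPKM after washout and 1027, 1100 and 1148 FPKM in 24 h M1 (-0.19, 95% interval -0.86 to 0.49). Mx1, a GTPase that blocks influenza viruses, had 594, 513 and 766 FPKM against 1133, 650 and 744 FPKM (-0.41, -1.002 to 0.18). All 16 interferon-induced GTPases of cell-autonomous defence had a negative value, with a median of -0.35 (limma; 3 lower at an unadjusted p under 0.05, none past the test with or without the replicate block). They summed to between 5273 and 6111 FPKM after washout and to between 5979 and 7280 FPKM in 24 h M1, again with overlap. The most abundant of these GTPases, Gbp2, had 2814, 2922 and 3144 FPKM against 3298, 2881 and 2768 FPKM. Iigp1 had means of 320 and 610 FPKM (-0.94, 95% interval -1.76 to -0.13, limma adjusted p = 0.28). These GTPases are close copies of each other, and reads may have been shared among them.

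**Figure D2:**
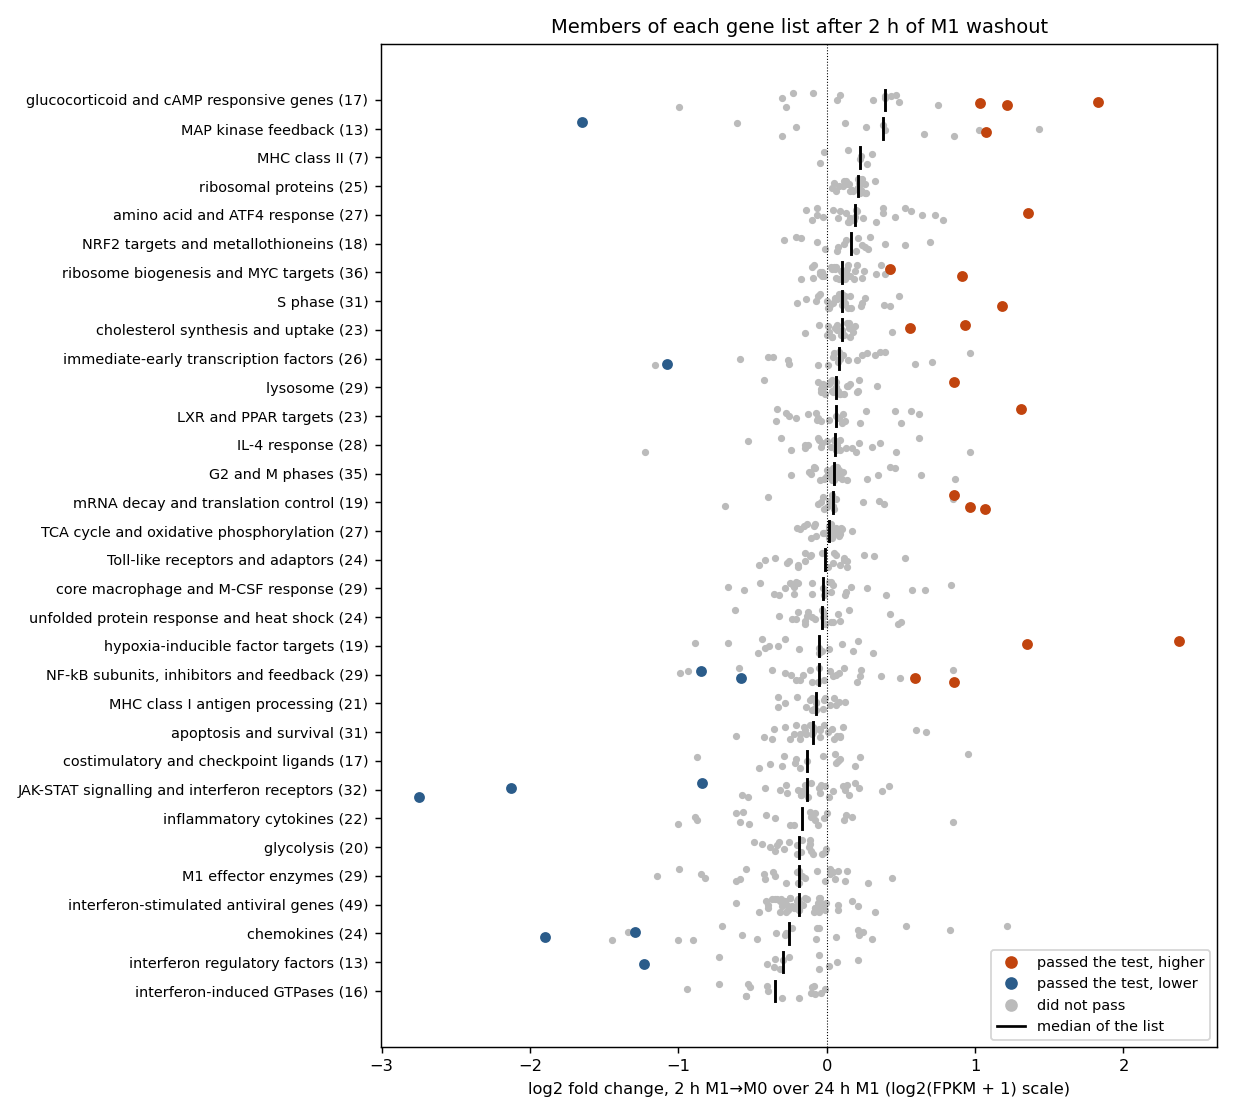
Log2 fold change of 2 h M1 → M0 over 24 h M1 on the log2(FPKM + 1) scale for each measured member of the pathway lists, with the number of members in brackets, lists ordered by their median (black bar). Orange points rose and blue points fell past the test, and grey points did not pass. Most antiviral genes and all GTPases lie to the left of 0 with no coloured point, while Socs1 and Socs3 lie far to the left of the other JAK-STAT genes.

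The largest rises at these levels included 3 genes of the Id and Bhlh families. Id proteins bind helix-loop-helix transcription factors and keep them off DNA. Id3 (chromosome 4) had 28.9, 16.7 and 24.8 FPKM in 2 h M1 → M0 cells, against 0.52, 1.33 and 1.70 FPKM in 24 h M1 cells, a log2 fold change of 3.49 ± 0.51 SE (limma adjusted p = 5.1e-07). With 1 FPKM added before the log, this understates the change of a gene so low in 24 h M1, and the value was 4.29 with 0.1 FPKM added and 2.18 with 5 FPKM. Id2 (chromosome 12) had 264, 285 and 284 FPKM against 62.1, 81.3 and 82.0 FPKM (1.88 ± 0.25 SE, limma adjusted p = 2.2e-08). Bhlhe40 (chromosome 6), a transcriptional repressor that responds to hypoxia and to the circadian clock, had 38.9, 36.1 and 37.8 FPKM against 7.65, 5.21 and 6.63 FPKM (2.38 ± 0.36 SE, limma adjusted p = 1.4e-06). The calls of Id3, Id2 and Bhlhe40 held under each of 16 alternative settings.

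Bhlhe40 and its relative Bhlhe41 were the 2 of 19 targets of hypoxia-inducible factors that rose, and the median of that list was -0.05. Bhlhe41 had 21.3, 19.1 and 16.5 FPKM after washout against 6.72, 7.11 and 6.57 FPKM (1.35 ± 0.32 SE, limma adjusted p = 0.0052). Genes of the hypoxic response proper, such as Egln3 (4.48 and 8.78 FPKM on average, 2 h M1 → M0 first; -0.89, 95% interval -2.06 to 0.28), did not pass. All 20 glycolysis genes had a small negative value, with a median of -0.19 and none past the test (limma; none at an unadjusted p under 0.05 and none with the replicate block). Their summed level overlapped between the groups (5401 to 6372 FPKM after washout, 6338 to 6821 FPKM in 24 h M1). All 25 ribosomal protein genes had a small positive value, with a median of 0.21 (limma; 1 at an unadjusted p under 0.05, none past the test with or without the replicate block). Their summed level overlapped too (3799 to 4681 FPKM after washout, 3030 to 4516 FPKM in 24 h M1).

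Of 17 measured genes that respond to glucocorticoids or cyclic AMP 3 rose, against 2.37% of all genes, at a list median of 0.40, the highest of the lists. Sgk1, a kinase gene that glucocorticoids and growth factors induce, had 106, 72.2 and 68.0 FPKM after washout and 26.2, 17.6 and 22.95 FPKM in 24 h M1 (1.83 ± 0.40 SE, limma adjusted p = 0.0019). Sik1, a salt-inducible kinase gene under CREB control, had 14.3, 20.0 and 19.1 FPKM against 6.02, 8.14 and 7.09 FPKM (1.21 ± 0.24 SE, limma adjusted p = 0.00045). Per1, a clock gene that also responds to CREB and to glucocorticoids, had 20.4, 27.1 and 24.4 FPKM against 9.53, 13.7 and 10.5 FPKM (1.03 ± 0.23 SE, limma adjusted p = 0.0024; 0.054 in a fit of the 6 libraries alone). In each of the 3 genes the groups lay apart. Members that did not pass included the glucocorticoid receptor gene Nr3c1 (46.6 and 35.2 FPKM on average, 0.43, 95% interval 0.13 to 0.74, limma adjusted p = 0.12, and 0.041 with the replicate block) and the glucocorticoid target Fkbp5 (2.36 and 1.38 FPKM, 0.49, 0.09 to 0.89). Of the 17 members 12 had a positive and 5 a negative log2 fold change, with Ptgs2 the lowest (30.9 and 70.1 FPKM, -0.99, -2.19 to 0.20).

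Amino acid transport and mRNA decay gave the next examples. Slc38a2, a transporter gene for neutral amino acids, was the 1 of 27 genes of the amino acid and ATF4 response that rose, with 34.1, 19.7 and 22.1 FPKM after washout and 13.9, 6.60 and 7.85 FPKM in 24 h M1 (1.36 ± 0.30 SE, limma adjusted p = 0.0018; 0.052 without replicate 1 of 2 h M1 → M0 and 0.12 in a fit of the 6 libraries alone). Of that list 8 were higher at an unadjusted p under 0.05, and 4 rose with the replicate block. Ddit3, which encodes the stress factor CHOP, had means of 143 and 85.4 FPKM (0.73, 95% interval 0.28 to 1.18, limma adjusted p = 0.057, and 0.039 with the replicate block). Among 19 genes of mRNA decay and translation control, Zfp36l2, Tob2 and Zc3h12a rose. Zfp36l2, which encodes a protein that binds AU-rich elements and promotes decay, had 176, 118 and 157 FPKM against 67.5, 73.3 and 69.5 FPKM (1.07 ± 0.22 SE, limma adjusted p = 0.00099), and Tob2, which recruits the deadenylase complex, had 18.2, 18.3 and 19.5 FPKM against 9.11, 9.62 and 8.53 FPKM (0.97 ± 0.18 SE, limma adjusted p = 0.00016). Zfp36 (tristetraprolin), a relative of Zfp36l2, went the other way without passing, at means of 120 and 193 FPKM (-0.69, -1.36 to -0.01).

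The other named genes that rose have varied roles. Flcn, which encodes folliculin, a regulator of lysosomal nutrient sensing, had 50.1, 61.8 and 56.5 FPKM after washout against 22, 28.7 and 23.4 FPKM (1.16 ± 0.23 SE, limma adjusted p = 0.00036). Cdt1, which licenses origins of DNA replication, had 31.4, 33.5 and 38.5 FPKM against 12.2, 16.3 and 15.5 FPKM (1.18 ± 0.24 SE, limma adjusted p = 0.00079) and was the 1 of 31 S phase genes that rose, at a list median of 0.10. Among 35 G2 and mitosis genes none passed (limma; 2 higher at an unadjusted p under 0.05, 1 higher with the replicate block), and 21 of them were at or under 1 FPKM in both groups. Insig1, which restrains the activation of SREBP, and Sqle, an enzyme gene of sterol synthesis, rose among 23 cholesterol genes, by 0.93 ± 0.20 SE (38.1 against 19.3 FPKM, limma adjusted p = 0.0016) and by 0.56 ± 0.15 SE (7.76 against 5.01 FPKM, limma adjusted p = 0.019). The Sqle call was lost without replicate 1 or 2 of either group (0.055 to 0.18) and in a fit of the 6 libraries alone (0.2). Mylip, an LXR target that marks the LDL receptor for degradation, had 17.5, 17.6 and 16.9 FPKM against 6.83, 6.08 and 6.30 FPKM (1.31 ± 0.25 SE, limma adjusted p = 0.00028).

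Ifrd1 had 532, 311 and 278 FPKM after washout against 190, 90.9 and 108 FPKM (1.53 ± 0.40 SE, limma adjusted p = 0.014), and its opposite-strand neighbour Gm7008, which overlaps its exons, rose as well (27.6, 24.1 and 24.7 FPKM against 7.83, 7.48 and 7.11 FPKM). Without strand the reads of the pair cannot be told apart where they overlap. The Ifrd1 call was lost without replicate 1 of 2 h M1 → M0 (0.16) or replicate 2 (0.12) or 3 (0.088) of 24 h M1 and in a fit of the 6 libraries alone (0.13). Gnl3, which encodes nucleostemin, and Nop14 rose among 36 genes of ribosome biogenesis, by 0.91 ± 0.13 SE (limma adjusted p = 3.3e-07) and 0.43 ± 0.11 SE (limma adjusted p = 0.017), at a list median of 0.11. Nop14 lost its call without replicate 1 (0.052) or 3 (0.11) of 2 h M1 → M0 or replicate 2 (0.057) or 3 (0.072) of 24 h M1 and in a fit of the 6 libraries alone (0.15). Atp6v0d2, a subunit gene of the proton pump, was the 1 of 29 lysosome genes that rose, at means of 76.3 and 42.3 FPKM (0.86 ± 0.17 SE, limma adjusted p = 0.00061; 0.18 in a fit of the 6 libraries alone). The rest of the 14 genes with the largest rise among those that averaged at least 20 FPKM in either group were Fam46c, Gas2l3, Lhfpl2, Rhov, Samd8 and Sh2b2, with log2 fold changes between 1.13 (Samd8) and 1.82 (Fam46c). Of these, Gas2l3 lost its call without replicate 2 of 24 h M1 (0.057), Samd8 without replicate 1 of 2 h M1 → M0 (0.058), Lhfpl2 without that library (0.11) or replicate 3 of 24 h M1 (0.056), and Rhov without replicate 1 (0.052) or 2 (0.16) of 2 h M1 → M0 or replicate 1 (0.087) or 3 (0.094) of 24 h M1. In a fit of the 6 libraries alone Samd8 (0.052) and Lhfpl2 (0.073) did not pass.

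Of the remaining named genes that fell, Neat1 and Rnf145 had the largest changes. Neat1, a long noncoding RNA that builds nuclear paraspeckles, had 164, 81.8 and 91.1 FPKM after washout against 246, 301 and 210 FPKM (-1.21 ± 0.31 SE, limma adjusted p = 0.011), and lost its call without replicate 2 (0.12) or 3 (0.066) of 2 h M1 → M0 or replicate 2 of 24 h M1 (0.086) and in a fit of the 6 libraries alone (0.14). Rnf145, a ubiquitin ligase gene, had 8.97, 8.89 and 9.46 FPKM against 19.7, 17.9 and 22.9 FPKM (-1.06 ± 0.15 SE, limma adjusted p = 2e-07). Fbxl5, which controls iron regulatory protein turnover, and the zinc finger genes Zfp800 and Zfp281 fell by 0.94, 0.91 and 0.67 on the log2 scale. Zfp800 lost its call without replicate 2 of 2 h M1 → M0 (0.073) or replicate 1 of 24 h M1 (0.098), and Zfp281 without these (0.11 and 0.12) or replicate 3 of 24 h M1 (0.098), and neither passed in a fit of the 6 libraries alone (0.17 and 0.11). In all of these the 2 groups lay apart, as the rule for naming them required. Arg1, the marker of the M2 state, had 173, 181 and 135 FPKM after washout against 345, 302 and 523 FPKM in 24 h M1. The groups did not overlap, and the difference of -1.23 (95% interval -2.29 to -0.16) did not pass (limma adjusted p = 0.28; 0.13 with the replicate block and 0.036 with it in the 6 libraries alone). Pparg and Stat6 did not pass either (0.62, -0.11 to 1.35, and -0.15, -0.34 to 0.05), where Pparg had a limma adjusted p of 0.066 with the replicate block and of 0.03 with it in the 6 libraries alone, and Retnla was at or below 0.63 FPKM in all 6 libraries. Of 28 genes of the IL-4 response none passed (limma; 1 higher and 1 lower at an unadjusted p under 0.05, 1 higher with the replicate block).

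The other lists had no member past the test (limma). At an unadjusted p under 0.05 there were 1 higher and 2 lower of 24 Toll-like receptors and adaptors, 1 lower of 21 genes of MHC class I antigen processing, 3 higher and 1 lower of 24 genes of protein folding stress, 1 higher of 18 NRF2 targets, 2 higher and 3 lower of 29 core macrophage genes and 2 higher and 3 lower of 31 genes of apoptosis and survival. There were 0 among 17 costimulatory ligands, 7 MHC class II genes and 27 TCA cycle and respiratory chain genes. With the replicate block 1 higher and 1 lower folding stress gene, 1 higher NRF2 target, 1 higher and 1 lower core macrophage gene and 2 lower apoptosis genes passed.

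The washout was also sampled at 1 and 4 h, and the levels at these times are given as a description, since each would be set against the same 24 h M1 libraries. Socs1 averaged 171 FPKM in 24 h M1, 60.6 FPKM at 1 h, 28.3 FPKM at 2 h and 7.47 FPKM at 4 h, with 1.01 FPKM in 0 h M0 cells that had never been stimulated. Irf1 averaged 510 FPKM in 24 h M1, 481 FPKM at 1 h, 237 FPKM at 2 h and 36.8 FPKM at 4 h, and Cxcl10 averaged 1123, 678, 299 and 36.9 FPKM at these times. At 1 h all Socs1 libraries (31.2 to 75.3 FPKM) lay below those of 24 h M1, while the Irf1 libraries (403 to 542.5 FPKM) enclosed them. Nos2 averaged 624 FPKM in 24 h M1, 581 FPKM at 1 h, 562 FPKM at 2 h and 292 FPKM at 4 h. Id2 averaged 75.1, 144.9, 278 and 281 FPKM and Id3 1.18, 7.20, 23.5 and 20.1 FPKM in this order, and in 0 h M0 cells the means were 71.0 FPKM for Id2 and 1.52 FPKM for Id3. The means of both genes at 2 and 4 h were above that of unstimulated cells. Ier3 averaged 23.5, 7.63, 10.8 and 8.20 FPKM, against 34.0 FPKM in 0 h M0. The 1 h libraries of Bhlhe40 ranged from 10.4 to 35.5 FPKM.

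**Figure D3:**
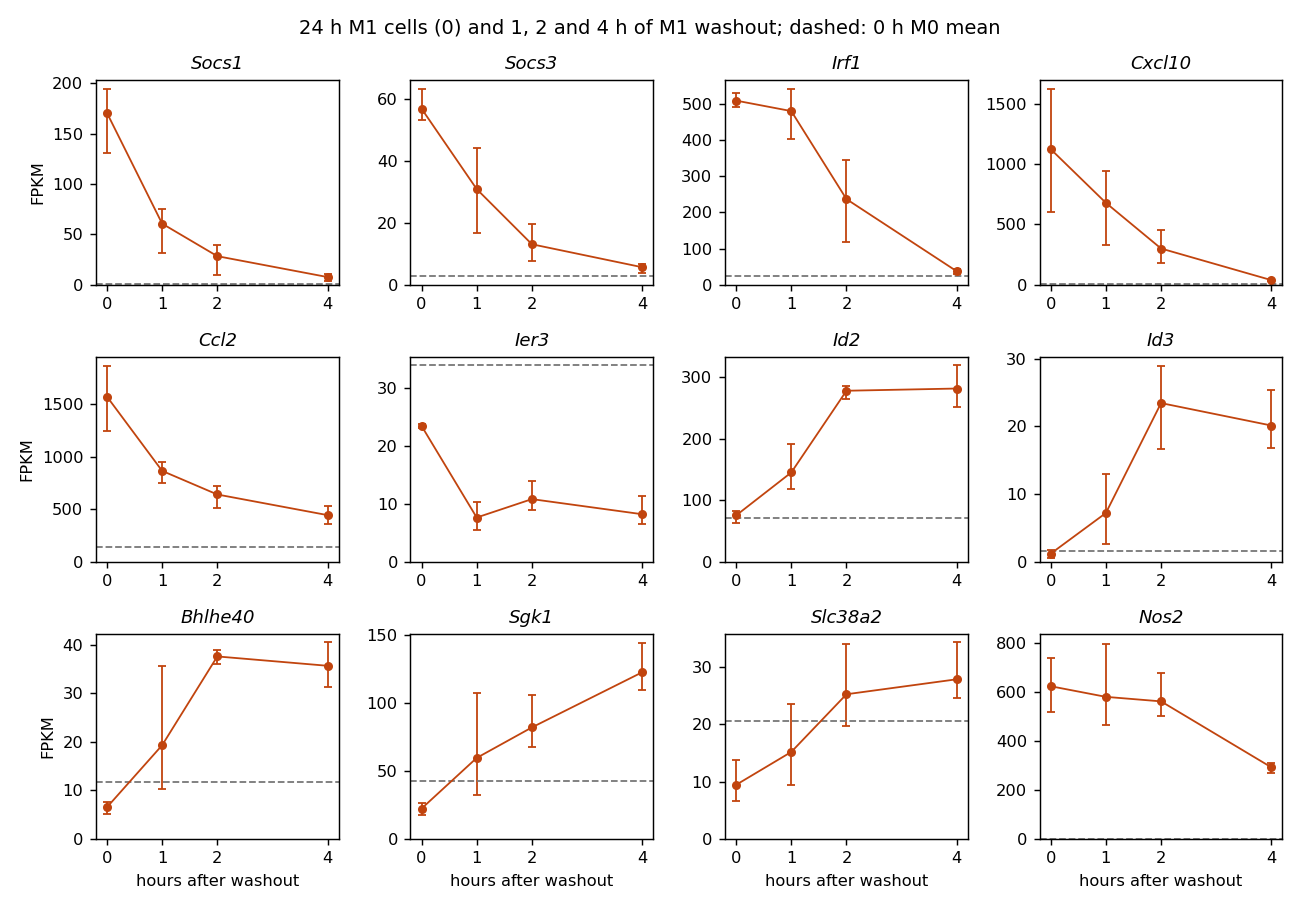
Mean FPKM with the range over 3 libraries in 24 h M1 cells (0 on the axis) and at 1, 2 and 4 h after M1 washout for 12 genes, on linear axes that start at 0, and the mean of 0 h M0 cells as a dashed line. Socs1, Socs3, Irf1, Cxcl10 and Ccl2 have lower means at each later time, Id2, Id3 and Bhlhe40 are at or near their highest mean at 2 h, and Nos2 has its lowest mean at 4 h.

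When IL-4 was added at the switch (2 h M1 → M2, 3 libraries), some of these genes stood at other levels, which are likewise given without a test. Socs1 averaged 28.3 FPKM in 2 h M1 → M0 and 400 FPKM in 2 h M1 → M2, Ccl2 641 and 1616 FPKM, and Irf1 237 and 570 FPKM. Id2 averaged 278 FPKM in 2 h M1 → M0 and 139 FPKM in 2 h M1 → M2, and Cxcl10 299 and 402 FPKM.

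To see which changes differed from those of another washout, the change from 24 h M1 to 2 h M1 → M0 was compared with the change from 24 h M2 to 2 h M2 → M0 by a contrast of differences. Of 8307 genes 82 passed (0.987%), 37 with a higher and 45 with a lower value after M1 washout, and 685 had an unadjusted p under 0.05 (limma). With the replicate block 147 passed. Leaving out 1 library gave between 41 and 115 genes. The number was 41 without replicate 2 of 2 h M1 → M0, 52 and 44 without replicates 1 and 3 of 24 h M1, 42 and 48 without replicates 1 and 3 of 2 h M2 → M0, and 50 and 43 without replicates 2 and 3 of 24 h M2. Without the libraries numbered 1 in all 4 groups 18 passed. Of the 257 genes of the M1 comparison 27 were among the 82. Since the 24 h M1 and 2 h M1 → M0 libraries enter both tests, this number is not independent of the first.

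Socs3 and Bhlhe40 changed after M1 washout with estimates near 0 after M2 washout. The log2 fold change of Socs3 was -2.13 ± 0.30 SE after M1 washout and 0.02 after M2 washout, where it averaged 0.98 and 0.91 FPKM (difference -2.15 ± 0.43 SE, limma adjusted p = 0.00092). That of Bhlhe40 was 2.38 ± 0.36 SE and -0.05, and it was already at 97.8 FPKM in 24 h M2 (difference 2.42 ± 0.51 SE, limma adjusted p = 0.0027). The feedback and stress genes Ier3, Nfil3 and Ppp1r15a fell after M2 washout, and the difference from M1 washout passed for each. Ier3 changed by -1.07 ± 0.32 SE after M1 and by -3.76 ± 0.32 SE after M2 washout, with 2.70 FPKM in 2 h M2 → M0 and 49.9 FPKM in 24 h M2 (difference 2.68 ± 0.46 SE, limma adjusted p = 7.6e-05). Nfil3, a repressor of the bZIP family, changed by -0.09 and by -2.59 (difference 2.50 ± 0.42 SE, limma adjusted p = 4.7e-05). Ppp1r15a, which ends the translation block of the stress response, changed by 0.72 and by -1.35 (difference 2.07 ± 0.48 SE, limma adjusted p = 0.01; 0.056 to 0.068 without replicate 1 or 3 of 2 h M2 → M0 or replicate 3 of 24 h M2). Osgin1, an oxidative stress gene, rose by 1.09 ± 0.30 SE after M1 washout and fell by 1.31 after M2 washout (difference 2.40 ± 0.43 SE, limma adjusted p = 0.00016).

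Nfkbia and Cdkn1a went in opposite directions, with estimates of -0.99 and -0.61 after M1 washout and of 0.92 and 0.56 after M2 washout, none of which passed by itself without the replicate block, and the differences passed (-1.91 ± 0.46 SE, limma adjusted p = 0.015, and -1.17 ± 0.29 SE, limma adjusted p = 0.022). Without replicate 1 of 2 h M2 → M0 the limma adjusted p of Nfkbia was 0.095, and that of Cdkn1a was 0.072 to 0.083 without replicate 2 of 2 h M1 → M0, replicate 1 of 24 h M1 or replicate 1 of 24 h M2. The cholesterol exporter gene Abcg1, an LXR target, changed by 0.46 after M1 and changed by -1.002 after M2 washout (difference 1.46 ± 0.28 SE, limma adjusted p = 0.00042). Id2 and Id3 passed after both washouts, Id2 with 1.88 after M1 and 1.59 after M2 washout (difference 0.29 ± 0.35 SE) and Id3 with 3.49 and 2.46 (1.04 ± 0.73 SE). Socs1 fell after both, by 2.75 and by 3.94 (difference 1.19 ± 0.54 SE, limma adjusted p = 0.5). The errors of these differences leave room for unequal responses.

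**Figure D4:**
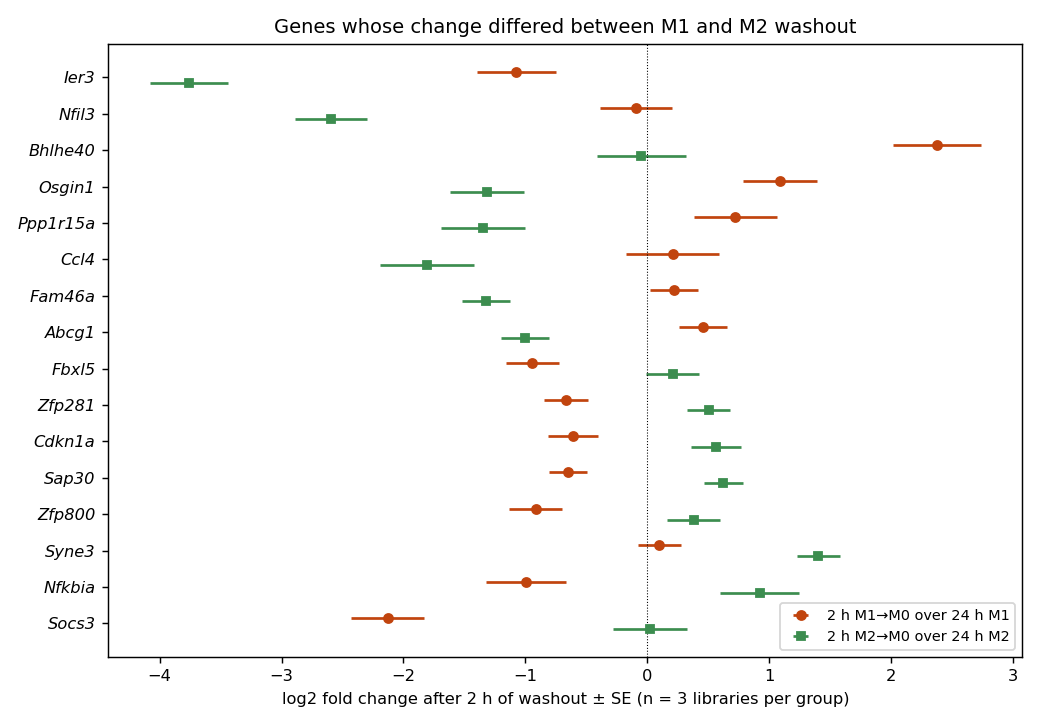
Log2 fold change ± SE (n = 3 libraries a group) for 16 genes, ordered from the largest positive difference between the washouts. Orange circles (upper) show 2 h of M1 washout and green squares (lower) 2 h of M2 washout. The genes have the largest differences in each direction among those past the test of the difference that met a filter. The filter asked for a mean of at least 20 FPKM in a group and libraries that lay apart in either comparison, with predicted genes left out. Genes that did not meet it, such as Dusp6 (difference -1.96), are not shown, even where they differed by more. Ier3 is negative in both and further from 0 after M2 washout, Bhlhe40 and Socs3 lie near 0 after M2 washout only, and Zfp281, Sap30, Cdkn1a and Nfkbia lie on opposite sides of 0.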

How the data were processed

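Bulk RNA-seq libraries of mouse BMDMs were used. Per the study's methods, the authors mapped reads to mm10 with TopHat 2.0.14 and quantified them as FPKM through Cuffquant and then Cuffnorm 2.2.2. They deposited log10 values, log10(FPKM + 1), for genes that reached 10 FPKM somewhere in the series. Read counts are not given, so the depth is unknown. Deposited ATAC-seq and single-cell files were not used. The study used Cuffdiff, which needs the reads. All columns of per-sample values were matched to a sample.

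The deposited values were converted to log2(FPKM + 1). One limma 3.58.1 model (R 4.3.3) took all bulk libraries, in 48 conditions, with a trend of the variance on the mean and two-sided tests, adjusted by Benjamini-Hochberg over all genes at 0.05. A fold change on this scale understates that of low genes. In simulated tables of 8307 genes, recovery by the comparison of 2 h M1 → M0 with 24 h M1 was 64% for a log2 change of 0.585, 84% for 1, and 100% for both 2 and 3 (50 genes per size, 13 false calls). The contrast with M2 washout recovered 28%, 72%, 100% and 98% at these sizes, with 6 false calls. Changes were placed only in genes above 20 FPKM in 24 h M1 or 24 h M2. The noise was independent between libraries, with no replicate effect. Recovery in lower genes was not simulated. Figures were drawn with matplotlib 3.10.9 in Python 3.11.15.

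The comparison and the gene lists were chosen with earlier results of these data known. Named genes follow a rule with 4 parts. The first takes the 14 largest changes in each direction of called genes that average 20 FPKM or more in either group, with libraries that do not overlap and predicted genes left out. The second takes up to 5 called members of each list by size of change and up to 2 against its majority, and the third the genes the study plots, of which 1 is not reported here. The fourth takes the 8 largest differences from M2 washout in each direction under the same filter, where the libraries of a washout and its start had to lie apart in at least 1 of the 2 comparisons. Other genes named, such as Gm17334, Gm7008 and list members that did not pass, were chosen after their values were seen.

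Replicate numbers from the labels were checked for pairing by the deviations of libraries from their group means. Those of equally numbered libraries correlated at 0.736, 0.561 and 0.25 across genes for M1 washout and at 0.692, 0.121 and 0.20 for M2 washout. Some unequally numbered libraries correlated more highly. Replicate 3 of 2 h M1 → M0 and replicate 2 of 24 h M1 were at 0.327. Replicates 3 and 2 of 2 h M2 → M0 were at 0.464 and 0.482 with replicates 2 and 3 of 24 h M2. Only replicate 1 correlated most with its own number in both washouts. The numbers were taken to pair the samples, and for replicates 2 and 3 the block rests on the labels. Alternatives were other pseudocounts (0.1 and 5 FPKM), a filter of 10 FPKM, common medians, quantile normalization, no trend, only the libraries of a contrast, the replicate block, a 2-fold threshold and each library left out. Of 65 named genes 63 were found in GENCODE vM21, and 18 share exonic sequence with a gene on the opposite strand.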

Additional observations from a re-analysis of the deposited data

Results flagged for a closer look

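By a test of the difference itself (limma, adjusted p below 0.05), the change after M1 washout differed from that after M2 washout in 16 genes. These were named by the fourth part of the rule, which took genes past this test. The difference on the log2 scale was positive for Ier3 (2.68), Nfil3 (2.50), Bhlhe40 (2.42), Osgin1 (2.40), Ppp1r15a (2.07), Ccl4 (2.02), Fam46a (1.54) and Abcg1 (1.46). It was negative for Socs3 (-2.15), Nfkbia (-1.91), Syne3 (-1.30), Zfp800 (-1.30), Sap30 (-1.27), Cdkn1a (-1.17), Zfp281 (-1.17) and Fbxl5 (-1.15). Of these, Ier3, Nfil3, Osgin1, Fam46a, Abcg1 and Syne3 kept their call under each of 22 alternatives run. Ccl4 lost it in 14 and Fbxl5 in 13 of them. Genes named by other parts of the rule passed this test too. These were Dusp6 (-1.96, limma adjusted p = 0.0016), Rnf145 (-0.89, 0.013), Gnl3 (0.72, 0.027), Atp6v0d2 (0.91, 0.042) and Flcn (1.17, 0.043). In groups of 3 libraries no single library was tested as far from the rest.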

How the results depend on the processing

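The main fit gave 257 genes that passed (197 higher, 60 lower), and 59 of them changed at least 2-fold (44 and 15). Each refit gave its own set. A fit of the 6 libraries alone gave 63 genes (51 and 12), of which 56 were among the 257. The replicate block gave 448 (327 and 121), which held all 257. With the block in those 6 alone there were 545 (358 and 187), of which 207 were among the 257. Without the libraries numbered 1, an alternative chosen after seeing the data, there were 87 (73 and 14), of which 85 were among the 257. Leaving out 1 library gave 120 to 221 genes, 93 to 177 higher and 27 to 48 lower. For the difference from M2 washout (82, 37 positive and 45 negative) these were 147 with the block (60 and 87), 194 with the block in the libraries of the contrast (86 and 108), 48 at 2-fold (23 and 25) and 18 without the libraries numbered 1 (8 and 10), which also ended the calls of Socs3 (limma adjusted p = 0.071) and Bhlhe40 (0.097). Leaving out 1 library gave 41 to 115, with 18 to 55 positive and 21 to 60 negative. The causes were not tested. With a common median 148 rose and 76 fell (66.1% higher, against 76.7%). None of the 257 genes changed sign in any of these settings. For genes whose groups did not overlap, leaving out libraries could not have changed it. Of 877 repeats over the named genes of the M1 comparison, 733 kept their side of the threshold, 137 lost and 5 gained the call. Retnla, which did not pass and is near 0 FPKM, changed sign, at -0.13 without replicate 1 of 2 h M1 → M0 and -0.08 without replicate 2 of 24 h M1 (range without 1 library -0.13 to 0.22). With the replicate block in all libraries Jak1 and Nfkbia gained the call after M1 washout and no other call of a named gene changed. With the block in the libraries of a contrast alone Jak1 (limma adjusted p = 0.041), Arg1 (0.036) and Pparg (0.03) gained it, and Sqle (0.071) and the difference of Sap30 (0.056) lost it. No depth is known, so sampling error is not separated from other spread.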

Other observations

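Some genes past the test outside the named ones share known roles; they were picked after their values were seen, so no test over them is given. Id1 and Smad6, which like Id2 and Id3 are known targets of bone morphogenetic protein signalling, were among the 3 largest rises of all genes. Id1 had 12.4, 9.36 and 12.5 FPKM in 2 h M1 → M0 cells and 0.89, 1.35 and 0.72 FPKM in 24 h M1 cells (log2 fold change 2.65 ± 0.44 SE, limma adjusted p = 1.7e-05). Smad6, which encodes an inhibitor of that pathway, had 13.1, 4.59 and 7.57 FPKM against 0.82, 0.45 and 0.35 FPKM (2.52 ± 0.32 SE, limma adjusted p = 7.5e-09). After M2 washout Id1 changed by 3.72 and Smad6 by 0.99, and the differences between the washouts did not pass without the replicate block (limma adjusted p = 0.77 and 0.072; with the replicate block 0.46 and 0.018). Both genes lay apart in all libraries of the M1 comparison.

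Beside Flcn, its partner gene Fnip1 rose by 0.83 on the log2 scale, and so did the genes of the lysosomal nutrient sensing machinery Rragc (0.33) and Lamtor3 (0.45), the autophagy genes Ulk1 (0.47) and Gabarapl1 (0.47) and the vesicle sorting gene Vps18 (1.06). Tfeb (0.09), the lysosomal transcription factor gene, and Mcoln1 (-0.04) did not pass. Irs2, an adaptor of the insulin receptor, rose to 3.45, 6.44 and 4.08 FPKM after M1 washout, against 1.38, 1.61 and 1.501 FPKM in 24 h M1, and changed by -0.45 after M2 washout (difference 1.598, limma adjusted p = 0.018). Klhl21 (1.64 after M1, 0.12 after M2 washout) and Ccnf (1.97 and 0.26) differed between the washouts as well (limma adjusted p = 0.0027 and 0.022).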
